A study of Mus musculus with 19 samples.

Results

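The genes described here carry proteins from the endoplasmic reticulum (ER) to the Golgi and back: the COPII and COPI vesicle coats, the cargo receptors that ride in those vesicles, and the tethers and SNAREs that dock and fuse them. They were taken from a list of 54 symbols drawn up from their known roles, with earlier results of these data known, and 54 of the 54 were found among the 24421 gene symbols of each deposited count table. The list holds 14 COPII genes, 13 COPI genes, 18 cargo receptors and 9 tethers and SNAREs.

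The study asked what the ER stress sensor IRE1 and its partner XBP1 do in maturing dendritic cells, and it sequenced RNA of conventional dendritic cells sorted by flow cytometry from the spleens of C57BL6 mice. It holds 19 libraries in 6 groups. For type 1 cells (cDC1) there are 3 WT libraries, 3 labelled Xbp1 KO and 3 labelled Xbp1-Ire1 KO. For type 2 cells (cDC2) there are 4 WT, 3 Xbp1 KO and 3 Xbp1-Ire1 KO libraries. The WT group joins libraries that the labels name fl-fl (replicates 1 and 2 of each cell type) with libraries they name WT (cDC1 replicate 3, cDC2 replicates 3 and 4). The labels give no Cre driver, deleted exon, age, sex or batch for any group, and they do not say whether libraries come from separate mice, so p-values measure the spread between these libraries, which may in part be technical.

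Proteins enter the secretory pathway at the ER. The GTPase SAR1, switched on by PREB (SEC12), recruits the inner COPII coat of SEC23 and SEC24, in which SEC24 reads the export signals of cargo, and then the outer cage of SEC13 and SEC31. COPI, built of coatomer subunits recruited by ARF GTPases, carries escaped ER proteins and receptors back. IRE1, encoded by Ern1, is a membrane sensor of unfolded proteins. Its nuclease cuts Xbp1 mRNA, whose exons are then joined without the spliceosome. The spliced form is translated into a transcription factor known for expanding the ER and its export machinery in secretory cells. Without XBP1, IRE1 can become overactive and cut other mRNAs at the ER, a process called regulated IRE1-dependent decay. Whether such decay acted on the genes described here was not tested.

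Promoter sequences are shown first, because they let the genes that fell in cDC1 be set beside the DNA words that XBP1 and related factors are known to bind. The RefSeq promoter table (GRCm38.p6) held 54 promoters of 48 members, each running from 250 bases before to 50 bases after a start site, and none for the remaining 6 members. The following promoters are examples from members that were lower in Xbp1 KO cDC1. Their choice does not show how often such members hold a match. Each is printed 5′ to 3′ on the strand of the gene, in lower case, with every match to the words searched in capitals. Sec24d carries the UPRE core TGACGTG, the XBP1 and ATF6 response word. Arf5 and Tmed10 carry the shorter ACGTG on each strand, overlapping as a palindrome, and Tmed10 has ACGTG once more upstream. Ergic3 and Yif1a, the members with the largest falls in Xbp1 KO cDC1, held no match in this window. No match was found for Surf4, Tmed2 or Ergic1 either, all lower there and not printed, though a member without a promoter could give none.
Sec24d: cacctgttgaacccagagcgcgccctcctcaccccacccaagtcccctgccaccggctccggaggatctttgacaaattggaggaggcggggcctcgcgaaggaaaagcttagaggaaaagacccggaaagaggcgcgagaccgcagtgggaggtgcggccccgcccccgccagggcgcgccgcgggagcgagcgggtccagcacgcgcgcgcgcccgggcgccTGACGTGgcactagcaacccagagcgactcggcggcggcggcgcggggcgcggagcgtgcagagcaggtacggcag
Arf5: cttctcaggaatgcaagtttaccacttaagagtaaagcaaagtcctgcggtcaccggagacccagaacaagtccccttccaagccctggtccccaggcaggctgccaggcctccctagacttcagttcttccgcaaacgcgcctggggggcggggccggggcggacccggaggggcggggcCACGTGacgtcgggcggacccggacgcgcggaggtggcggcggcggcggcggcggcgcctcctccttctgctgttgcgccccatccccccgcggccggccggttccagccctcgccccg
Tmed10: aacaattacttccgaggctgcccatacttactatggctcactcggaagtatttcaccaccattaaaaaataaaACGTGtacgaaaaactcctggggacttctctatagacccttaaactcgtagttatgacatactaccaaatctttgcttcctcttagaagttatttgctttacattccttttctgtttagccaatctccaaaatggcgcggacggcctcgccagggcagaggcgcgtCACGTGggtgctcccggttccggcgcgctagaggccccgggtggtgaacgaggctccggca
Ergic3: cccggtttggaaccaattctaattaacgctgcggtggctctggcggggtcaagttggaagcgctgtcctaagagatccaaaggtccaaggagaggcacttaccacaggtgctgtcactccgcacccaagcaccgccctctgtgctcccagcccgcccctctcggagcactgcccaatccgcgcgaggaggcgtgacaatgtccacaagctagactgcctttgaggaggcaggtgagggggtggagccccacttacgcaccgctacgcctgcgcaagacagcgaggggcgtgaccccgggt
Yif1a: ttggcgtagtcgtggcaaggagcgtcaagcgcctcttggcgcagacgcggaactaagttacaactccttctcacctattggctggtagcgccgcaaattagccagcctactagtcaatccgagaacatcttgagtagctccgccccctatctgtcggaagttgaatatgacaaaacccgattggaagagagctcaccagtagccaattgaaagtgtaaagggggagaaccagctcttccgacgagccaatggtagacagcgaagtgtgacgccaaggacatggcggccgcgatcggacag
In GRCm38.p6 these windows are chr3:123267246-123267545 for Sec24d (plus strand), chr6:28423354-28423653 for Arf5 (plus), chr12:85374668-85374967 for Tmed10 (minus), chr2:156007778-156008077 for Ergic3 (plus) and chr19:5088288-5088587 for Yif1a (plus).

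The ACGTG word, searched on both strands, lay in 61.1% of the 54 member promoters, against 19.6% of all 32851 promoters of the same length and 25.7% of the 11116 promoters of genes tested in cDC1. The longer TGACGTG, which contains ACGTG, lay in 20.4% of member promoters, against 2.01% of all promoters and 2.82% of those of genes tested in cDC1. Its 10 genes were Sec23a, Sec24d and Mia3 of COPII, Arf1, Copb1, Copb2 and Gbf1 of COPI, the cargo receptor Kdelr3, and the SNAREs Stx5a and Use1. The full ER stress elements were searched too: ERSE (CCAAT and CCACG with 9 bases between them) and ERSE-II (ATTGG and CCACG with 1 base between them). Neither was found in a member promoter, and they lay in 0.119% and 0.0365% of all promoters. Among promoters of members that were lower in Xbp1 KO cDC1 (21 promoters of 19 genes), 71.4% held ACGTG and 14.3% held TGACGTG. Among the 33 promoters of the other members, 54.5% held ACGTG and 24.2% held TGACGTG. Overlapping windows of Arf1 counted the same TGACGTG site more than once, here and among all member promoters. By gene, ACGTG lay in 13 of 19 lower members and 18 of 29 others, closer than by promoter. TGACGTG lay in 2 of 19 lower members and 8 of 29 others. A match is a run of letters and no evidence of binding.

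Counts are given as counts per 1e6 counts (CPM) after TMM scaling within a cell type. Library totals ranged from 10.6 to 16.2 in units of 1e6 counts. Of the 54 members, 53 passed the filter on low counts in each cell type. The exception was Kdelr3, a receptor that returns KDEL-tagged ER proteins, with 0 to 6 counts in any cDC1 library and 0 to 5 in any cDC2 library. The targeted genes were read first. In cDC1, Xbp1 counts came to 143 to 233 CPM in the 3 WT libraries, 89.7 to 113 with Xbp1 targeted and 301 to 353 with both genes targeted. For Ern1 the same order gave 22.4 to 29.0, then 26.7 to 33.1, then 50.5 to 71.3 CPM. Gene-level counts of both targets thus did not fall to 0 in any knockout library and were above every WT library in Xbp1-Ire1 KO cDC1. A gene-level count includes RNA of exons that are still there, and since the deleted exons are not given, it does not check these labels. The sort markers followed the cell labels: the 7 cDC1 markers summed to 8251 to 10104 unscaled CPM in cDC1 and 224 to 402 in cDC2 libraries. One library stood apart: cDC1 Xbp1 KO replicate 3 held 2214 unscaled CPM of 15 pancreatic acinar transcripts, against at most 8.86 in any other library. The 12 immediate early genes (Fos, Jun and others that respond quickly to stimulation) summed to 14978 to 17945 unscaled CPM in Xbp1 KO cDC1. This was above the 8113 to 10208 of WT and the 6256 to 10458 of Xbp1-Ire1 KO. The 7 plasma cell markers, from cells rich in secretory machinery, gave overlapping sums in cDC1, from 21.7 to 66.9 CPM (WT), 22.7 to 97.7 CPM (Xbp1 KO) and 54.1 to 66.8 CPM (Xbp1-Ire1 KO). The part of these transcripts in the genotype differences was not tested.

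In WT cells the most abundant member per kilobase of exon was Tmed2, a p24 family cargo receptor, with 393 ± 23.2 CPM per kb in cDC1 (SD, n = 3) and 273 ± 29.1 in cDC2 (SD, n = 4). It was followed in cDC1 by the GTPases Arf1 (270 ± 26.8 CPM per kb) and Arf5 (196 ± 47.6) and by Surf4, a receptor for many soluble secreted proteins (140 ± 24.1). In cDC1 Tmed2 lay above Arf1 by more than their spread, while the spreads of Arf5 and Surf4 touched. In cDC2 the spreads of Tmed2 and Arf1 (236 ± 9.10) touched too. The leading COPII gene was Sar1b (82.4 ± 10.9 CPM per kb in cDC1) and the leading SNARE was Gosr2 (92.6 ± 1.04). Among the SEC24 cargo adaptors the order in cDC1 was Sec24c (35.7 ± 2.56 CPM per kb), Sec24b (12.3 ± 1.26), Sec24d (9.88 ± 2.27) and Sec24a (1.15 ± 0.292). Sec24b and Sec24d did not differ beyond their spread there. In cDC2 the order was Sec24c (27.8 ± 3.26), Sec24b (16.99 ± 1.82), Sec24d (1.94 ± 0.518) and Sec24a (1.02 ± 0.152). Sec23b stood above Sec23a in both cell types (15.9 ± 2.54 against 11.3 ± 1.26 CPM per kb in cDC1, and 14.6 ± 0.853 against 9.03 ± 1.47 in cDC2).

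The cell types were compared first in WT cells, in 1 fit of all 19 libraries. The secretory coat genes leaned towards cDC1: 25 of the 53 tested members were higher in cDC1 than in cDC2 and 1 was lower (edgeR quasi-likelihood test, adjusted p under 0.05). The background was wide, since 40.8% of the 12185 tested genes were called in this comparison, 20% higher and 20.7% lower. The median log2 fold change of the members was 0.28, against −0.04 over all tested genes. By role, 6 COPII genes, 7 COPI genes, 9 cargo receptors and 3 tethers and SNAREs were higher. The wider pathway list (RAB GTPases, other TRAPP and COG subunits and similar genes) had 19 higher and 6 lower of 68 tested.

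The largest difference was in Sec24d. On the scaling over all 19 libraries its WT libraries held 80.8, 59.8 and 52.7 CPM in cDC1 and 16.4, 10.3, 10.9 and 9.66 CPM in cDC2. The groups lay far apart, and Sec24d was 5.46-fold higher in cDC1 (log2 fold change 2.45 ± 0.20 SE, edgeR adjusted p = 4.4e-09). Copz2, one of 2 forms of the coatomer zeta subunit, held 6.57, 5.94 and 6.56 CPM in cDC1 and 1.06, 0.565, 1.73 and 2.19 in cDC2, a 4.59-fold difference at low counts (log2 fold change 2.20 ± 0.41, adjusted p = 0.00018). Its paralog Copz1 differed by 0.39 ± 0.11 on the log2 scale (adjusted p = 0.0076). Copg2, one of 2 forms of the gamma subunit, held 167, 191 and 126 CPM in cDC1 and 57.9 to 90.4 CPM in cDC2 (log2 fold change 1.11 ± 0.15, adjusted p = 5.1e-06). Its exons share 17.8% of their bases with Mest on the opposite strand, and the counting strand is not given. Copg1, the other form, differed by 0.28 ± 0.11 and was not called (adjusted p = 0.052). With a replicate block, whose numbers may not mark paired libraries, it was called (0.36, edgeR adjusted p = 0.017). Within each pair Copz2 and Copg2 had the larger values, a contrast between paralogs that was not tested.

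Of the other members with the smallest adjusted p, Tmed10, a p24 receptor, was 1.8-fold higher in cDC1 (216 ± 18.7 against 120 ± 6.97 CPM, adjusted p = 2.5e-06). Tfg, which organises ER exit sites, was 1.73-fold higher (122 ± 13.7 against 70.8 ± 8.16 CPM, adjusted p = 1.1e-05). Preb, the SAR1 exchange factor, was 1.68-fold higher (205 ± 14.6 against 122 ± 16.3 CPM, adjusted p = 4.7e-05). The coatomer subunit Cope was 1.71-fold higher (170 ± 35.1 against 99.6 ± 7.22 CPM, adjusted p = 9.3e-05), and the p24 receptor Tmed3 was 1.69-fold higher (81.4 ± 15.4 against 48.2 ± 8.56 CPM, adjusted p = 0.00052). Sec24b was the member lower in cDC1 (log2 fold change −0.37 ± 0.12, adjusted p = 0.018). Without cDC1 WT replicate 1 the calls numbered 13, and with only the libraries named WT they numbered 9. The other replicates left out gave 18 to 25.

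**Figure D1:**
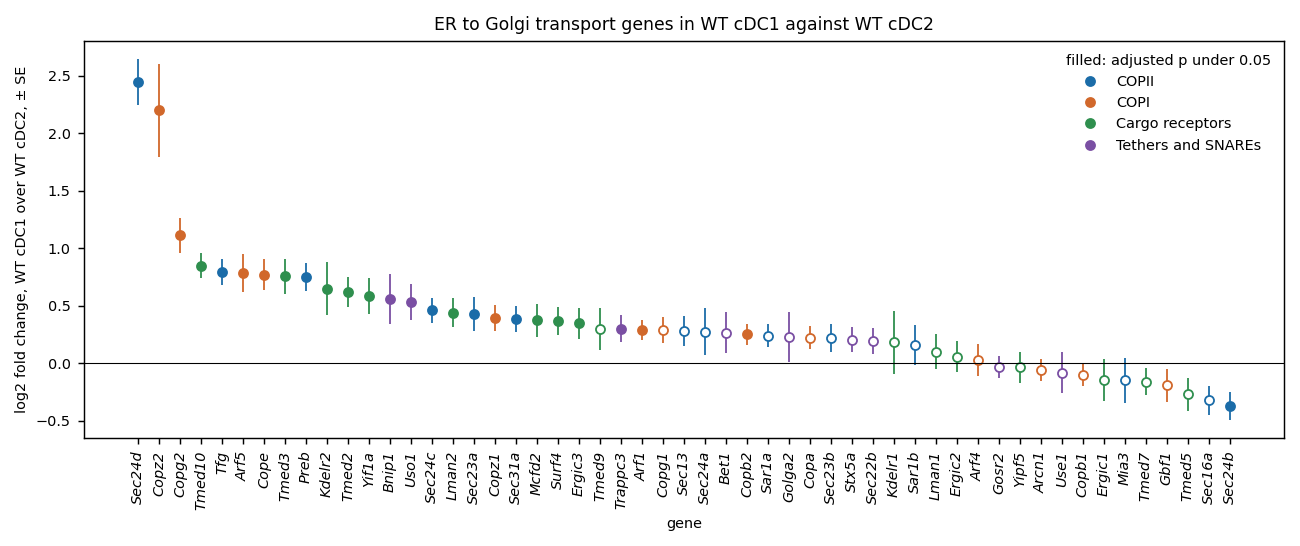
Log2 fold change (y axis, ± SE) of the 53 tested members (x axis) in WT cDC1 over WT cDC2, coloured by role, with filled points for calls at an adjusted p under 0.05. Sec24d and Copz2 sit alone above 2, and 25 of 26 filled points lie above 0.

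Much of this machinery was lower in Xbp1 KO cDC1. Of the 53 tested members 20 were lower in Xbp1 KO than in WT and 1 was higher, where 11.2% of all 11353 tested genes were called, 6.91% lower and 4.28% higher. The cargo receptors had the most calls, 9 lower and 1 higher of 17 tested. COPII had 5 lower of 14, COPI 4 lower of 13, and tethers and SNAREs 2 lower of 9. The median log2 fold change was −0.54 for cargo receptors, −0.23 for COPII, −0.26 for COPI and −0.19 for tethers and SNAREs, against −0.02 over all tested genes. Summed over a role, CPM stood at 62.7% of the WT mean for cargo receptors, 78.1% for COPI, 83.6% for COPII and 83.0% for tethers and SNAREs. In a bulk sample, fewer expressing cells and less RNA per cell cannot be told apart. Knockout and WT libraries did not overlap for 32 members (30 lower, 2 higher), as for 30.1% of all genes (16.4% lower, 13.7% higher). The wider pathway list had 6 lower and 1 higher of 67 tested.

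Among cargo receptors the deepest fall was in Ergic3, a membrane protein that cycles between ER and Golgi. It held 71.8, 59.2 and 52.0 CPM in WT and 17.3, 18.1 and 16.3 CPM in Xbp1 KO. The 3 knockout libraries lay together, far below every WT library, and Ergic3 was 3.53-fold lower (log2 fold change −1.82 ± 0.16, edgeR adjusted p = 6.6e-06). Yif1a, an ER-Golgi membrane protein that partners YIPF5, held 68.3, 56.8 and 40.1 CPM in WT and 18.1, 19.9 and 15.9 CPM in Xbp1 KO. It too had no overlap between groups and was 3.06-fold lower (−1.62 ± 0.19, adjusted p = 0.00011). Yipf5 itself held 64.3 to 81.4 CPM in WT and 50.8 to 61.6 in Xbp1 KO and was not called.

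Surf4 held 533, 471 and 376 CPM in WT and 208, 198 and 247 CPM in Xbp1 KO. Each knockout library was below each WT library, a 2.11-fold difference (−1.08 ± 0.14, adjusted p = 0.00032). Tmed2 held 1061, 960 and 960 CPM in WT against 508, 488 and 601 CPM (−0.90 ± 0.14, adjusted p = 0.0016). Lman2 (VIP36), a lectin that binds sugars on glycoproteins in transit, held 496, 478 and 348 CPM in WT against 273, 262 and 258 CPM (−0.74 ± 0.14, adjusted p = 0.0044).

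Ergic1, a relative of ERGIC3, held 116, 101 and 59.9 CPM in WT and 42.8, 44.9 and 44.9 CPM in Xbp1 KO (−1.06 ± 0.20, adjusted p = 0.0044). Its WT libraries were widely spread, with replicate 3, the library named WT, nearest to the knockouts. Against that library alone the difference was −0.42 and was not called (adjusted p = 0.25). Tmed9 showed the same spread more strongly, with 184, 164 and 82.8 CPM in WT and 76.5, 80.2 and 82.7 CPM in Xbp1 KO. Its call (−0.85 ± 0.22, adjusted p = 0.026) became −0.04 against the library named WT. Tmed3 (−0.71) and Tmed10 (−0.46) fell as well. Tmed5 was the member that rose, from 86.0, 90.1 and 102 CPM to 129, 120 and 128 CPM (0.44 ± 0.12, adjusted p = 0.038), so the p24 family members did not all move one way. The KDEL receptors gave no call: Kdelr1 held 69.3, 58.6 and 31.3 CPM in WT and 27.4 to 50.7 in Xbp1 KO, and Kdelr2 held 66.6, 59.2 and 32.3 CPM against 29.7 to 44.0 CPM.

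In the COPII coat 2 of the 4 SEC24 paralogs were called, and the contrast between paralogs was not tested. Sec24d held 78.6, 57.8 and 51.1 CPM in WT and 21.4, 27.5 and 26.1 CPM in Xbp1 KO, 2.5-fold lower without overlap (−1.32 ± 0.19, adjusted p = 0.00064). Sec24c held 217, 243 and 215 CPM in WT and 152, 148 and 167 CPM in Xbp1 KO (−0.53 ± 0.12, adjusted p = 0.016). Sec24a and Sec24b gave positive values that were not called (0.50 and 0.15). Of the cage, Sec31a (−0.54 ± 0.12, adjusted p = 0.015) and Sec13 (−0.51 ± 0.13, adjusted p = 0.024) were both lower. Sar1a, a GTPase that starts coat assembly, was lower (−0.44, adjusted p = 0.029), while Sar1b (−0.23), Sec23a (−0.23) and Sec23b (−0.40) did not pass.

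In COPI, Cope held 198, 166 and 130 CPM in WT and 93.6, 81.6 and 92.0 CPM in Xbp1 KO (−0.89 ± 0.15, adjusted p = 0.0027). The other coatomer subunits were not called, with Copa at −0.34 and Arcn1 at −0.03. The class II ARF Arf5 held 435, 417 and 269 CPM in WT and 186, 189 and 204 CPM in Xbp1 KO (−0.95 ± 0.17, adjusted p = 0.0029). Arf4 (−0.44, adjusted p = 0.048) and Arf1 (−0.37, adjusted p = 0.049) passed narrowly. Exons of Arf5 and Arf4 share 16.4% and 14.6% of their bases with a gene on the opposite strand (Gcc1 and Pde12). Copg1, Copg2, Copz1 and Copz2 lay between −0.34 and 0.14, none called. Of the SNAREs, Sec22b (−0.51, adjusted p = 0.033) and Bet1 (−0.80, adjusted p = 0.020), which drive fusion of ER-derived vesicles, were lower. The tethers Uso1 (p115) and Golga2 (GM130) were at −0.16 and 0.10 without a call.

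Ergic3, Yif1a, Surf4, Sec24d and Tmed2 were called in this comparison under each of the 15 alternatives that gave distinct fits (using the libraries named fl-fl alone and leaving out WT replicate 3 are the same fit). The count of members called was 5 against the 1 library named WT, 9 without Xbp1 KO replicate 1 or 2, 10 and 11 without WT replicate 1 or 2, and 29 without WT replicate 3. Without Xbp1 KO replicate 3, the library with acinar transcripts, 15 were called, all lower. The share of all genes called under each setting is not given beside these counts. A change in the members thus cannot be told from a change over all genes.

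**Figure D2:**
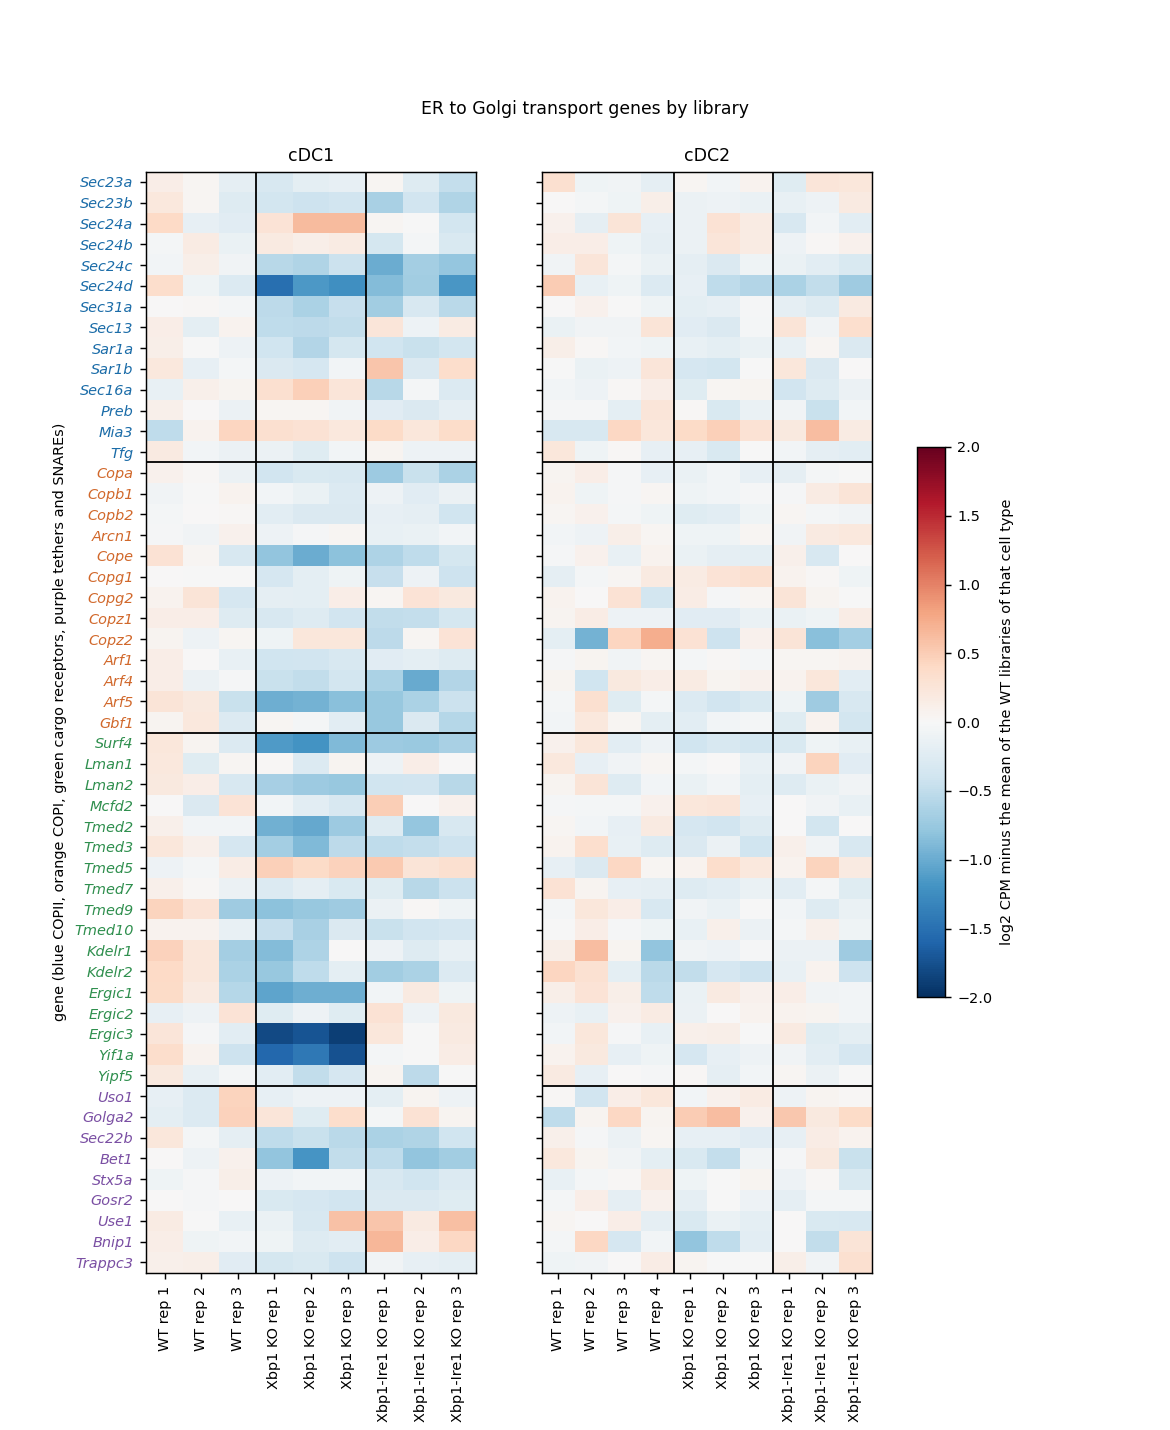
Each row is 1 of the 53 tested members and each column 1 library; colour is log2 CPM minus the WT mean of that cell type, from −2 (blue) to 2 (red). Ergic3 and Yif1a are dark blue in the 3 Xbp1 KO cDC1 libraries and near white in Xbp1-Ire1 KO, and most members of cDC2 libraries are pale, with Copz2, which has few counts, among the exceptions.

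With both genes targeted, SEC24 paralogs, ARF GTPases and Copa were among the members lower than in WT cDC1. In Xbp1-Ire1 KO 9 of 53 were lower and 0 higher, where 7.75% of all tested genes were called, 4.71% lower and 3.04% higher. They were 4 COPII genes, 3 COPI genes, 1 cargo receptor and 1 SNARE. This split turned on 1 WT library and on the tool: without WT replicate 3, 8 cargo receptors were lower and 1 was higher (median −0.43, from −0.14 with all libraries), and DESeq2 called 6 lower and 1 higher. The median over members was −0.23, against 0.01 over all tested genes. Summed CPM stood at 82.2% of the WT mean for COPII, 77.0% for COPI, 78.3% for cargo receptors and 86.9% for tethers and SNAREs. The wider pathway list had 4 lower of 67 tested. This comparison shares its WT libraries with the one before.

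Sec24c held 113, 140 and 131 CPM, all under the WT range of 215 to 243 (−0.81 ± 0.12, edgeR adjusted p = 0.0012). Sec24d held 33.7, 37.8 and 27.4 CPM, again under every WT library (−0.92 ± 0.19, adjusted p = 0.0089). Surf4 held 276, 271 and 291 CPM (−0.72 ± 0.14, adjusted p = 0.0070). The WT libraries of Surf4 started at 376 CPM, so these groups did not overlap either.

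Arf4 held 232, 179 and 238 CPM against 394, 329 and 353 CPM in WT (−0.73 ± 0.13, adjusted p = 0.0043). Copa, the alpha subunit of coatomer that reads retrieval signals, held 336, 409 and 359 CPM against 595, 567 and 514 CPM (−0.60 ± 0.12, adjusted p = 0.0062). Sec31a (−0.51, adjusted p = 0.021), Sec22b (−0.55, adjusted p = 0.028), Sec23b (−0.55, adjusted p = 0.029) and Arf5 (−0.63, adjusted p = 0.033) completed the calls. Only Arf5 among these 9 had groups that overlapped.

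Ergic3, Yif1a, Ergic1 and Sec13, each called lower in Xbp1 KO, were not called here. Ergic3 held 70.6, 60.4 and 68.6 CPM, within the WT range of 52.0 to 71.8 (0.13 ± 0.15). Yif1a held 52.1, 53.6 and 59.9 CPM, within the WT range of 40.1 to 68.3 (0.01 ± 0.19). Ergic1 held 85.2, 101 and 83.7 CPM (−0.03 ± 0.19), and Sec13 held 170, 134 and 160 CPM against 157, 126 and 150 in WT (0.10 ± 0.13). Surf4, a cargo receptor as well, was lower in both knockouts, as given above.

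Only Sec24c and Arf4 of the 9 were called under each of the 15 distinct alternatives. Copa, Surf4 and Sec24d lost their call in 1, that against the WT-named library. The count was 23 without WT replicate 3, 5 without WT replicate 1 or 2 or without Xbp1-Ire1 KO replicate 1, and 20 with DESeq2.

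**Figure D3:**
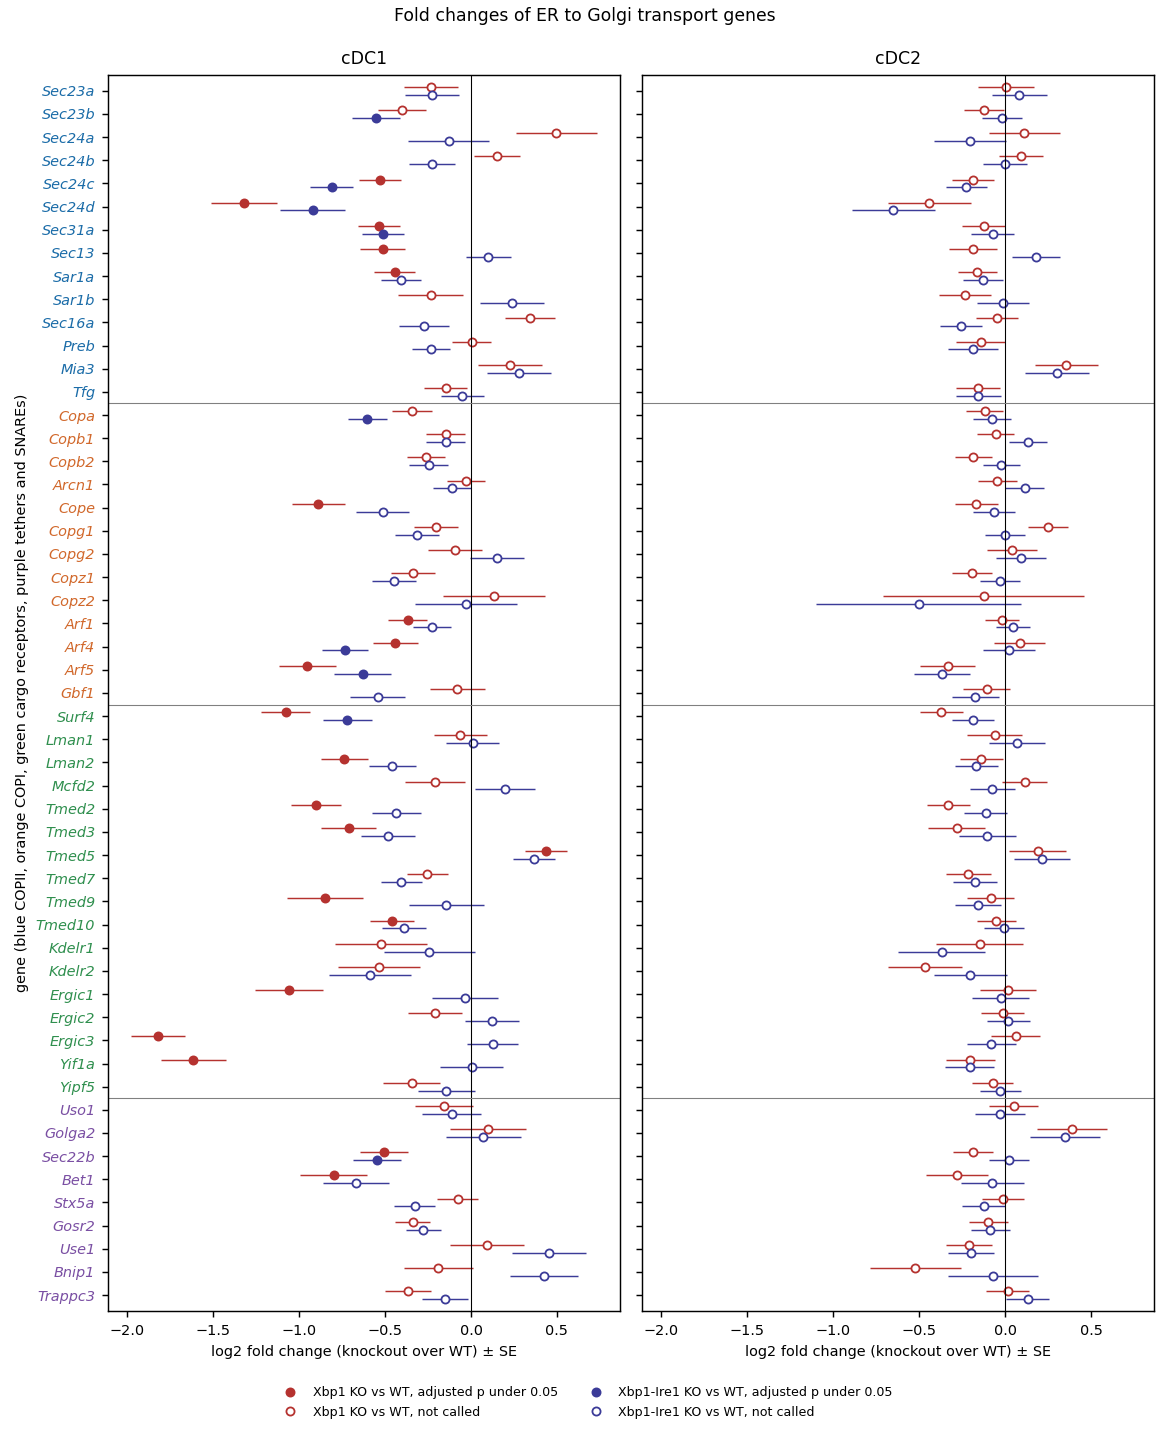
Log2 fold change over WT (x axis, ± SE) of the 53 tested members (y axis, by role) in Xbp1 KO (red) and Xbp1-Ire1 KO (dark blue), for cDC1 on the left and cDC2 on the right; filled points passed an adjusted p under 0.05. In cDC1, red points of Ergic3, Yif1a and Ergic1 lie at −1.06 or below while their blue points lie near 0, and cDC2 has no filled point.

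The 2 knockouts were then compared directly in cDC1. Of the 53 members 5 were higher in Xbp1-Ire1 KO than in Xbp1 KO and 1 was lower, a share of calls near that of all genes (12.7%, with 7.13% higher and 5.52% lower). Of the 5, 4 were cargo receptors. Ergic3 was 3.85-fold higher in Xbp1-Ire1 KO (1.95 ± 0.16, edgeR adjusted p = 2.9e-06). Yif1a was 3.07-fold higher (1.62 ± 0.19, adjusted p = 9.4e-05), and Ergic1 was 2.03-fold higher (1.02 ± 0.20, adjusted p = 0.0049). For each of these genes every Xbp1-Ire1 KO library lay above every Xbp1 KO library, and each was called under all 14 alternatives run.

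Sec13 held 101, 100 and 103 CPM in Xbp1 KO, below the 134 to 170 CPM of Xbp1-Ire1 KO (0.62 ± 0.13, adjusted p = 0.0085). Tmed2, whose groups overlapped, rose from 508, 488 and 601 CPM with Xbp1 targeted to 833, 582 and 791 CPM with both targeted (0.47 ± 0.14, adjusted p = 0.049). Sec16a, the scaffold of ER exit sites, was lower in Xbp1-Ire1 KO, with 70.8, 101 and 86.0 CPM against 129, 144 and 122 CPM (−0.62 ± 0.15, adjusted p = 0.015). No COPI gene, tether or SNARE was called. Sec24d (0.40), Sec24c (−0.28), Surf4 (0.36) and Arf4 (−0.29) gave differences between the knockouts that were not called. The wider pathway list had 0 higher and 3 lower of 67. The count was 3 without Xbp1 KO replicate 2 and 10 without Xbp1-Ire1 KO replicate 2.

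**Figure D4:**
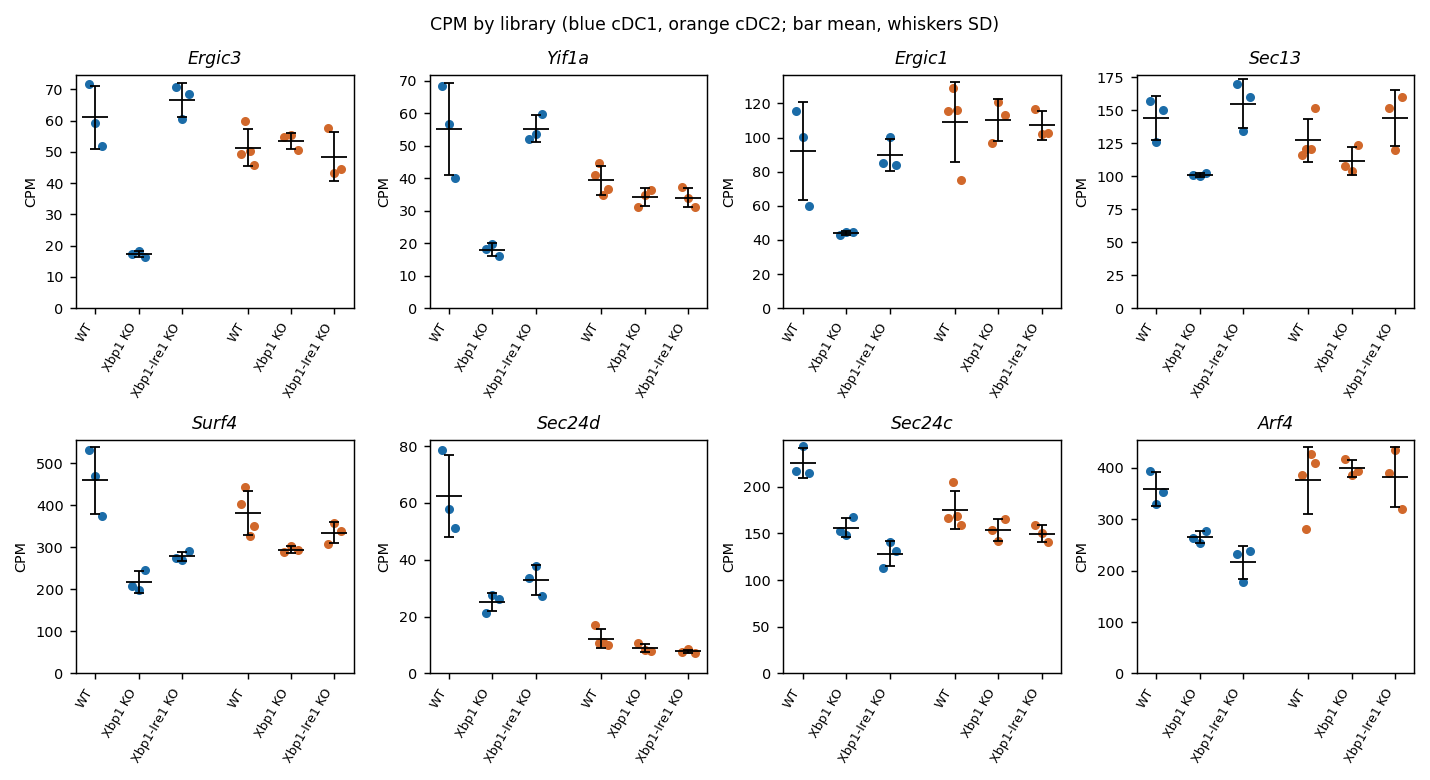
CPM (y axis, from 0) of 8 members in every library of the 6 groups (x axis); points are libraries, the bar is the mean and whiskers the SD. In cDC1 (blue), Ergic3, Yif1a, Ergic1 and Sec13 are low in Xbp1 KO alone, while Surf4, Sec24d, Sec24c and Arf4 are below WT in both knockouts.

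Across the 3 genotype comparisons in cDC1, 24 of the 53 tested members were called at least once and 29 were not. The latter were 7 COPII genes, 8 COPI genes, 7 cargo receptors and 7 tethers and SNAREs. Their log2 fold changes ran from −0.54 to 0.50 in Xbp1 KO against WT and from −0.59 to 0.45 in Xbp1-Ire1 KO against WT, negative for 22 and 20 of the 29. They include most of the coatomer: Arcn1 (delta) was at −0.03 and −0.11, Copb1 (beta) at −0.15 and −0.15, and Copb2 (beta prime) at −0.26 and −0.25. Lman1 (ERGIC-53), the lectin that exports clotting factors, was at −0.06 and 0.01, and its partner Mcfd2 at −0.21 and 0.20. Mia3 (TANGO1), which loads bulky cargo such as collagen, was at 0.23 and 0.28, with WT libraries from 48.2 to 92.2 CPM. Preb was at 0.00 and −0.23, and the tether subunit Trappc3 at −0.37 and −0.15. The SNAREs of the retrograde route into the ER, Use1 (0.09 and 0.45) and Bnip1 (−0.19 and 0.42), had higher values in Xbp1-Ire1 KO than in Xbp1 KO but passed in no comparison (adjusted p = 0.29 and 0.061 between the knockouts). A call that was missed does not show that a gene did not change.

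In cDC2 no member was called in any of the 3 comparisons (edgeR), and few genes were: 0.103% of the 11646 tested genes in Xbp1 KO against WT, 0.0258% in Xbp1-Ire1 KO against WT and 0.0343% between the knockouts. At an unadjusted p under 0.05 the members numbered 3, 2 and 1 of 53, where 9.68%, 7.53% and 8.24% of all tested genes had such a p. The median over members was −0.12 in Xbp1 KO and −0.07 in Xbp1-Ire1 KO against WT, with −0.02 and 0.00 over all tested genes. Surf4 gave the smallest p in Xbp1 KO, with 403, 443, 327 and 352 CPM in WT and 288, 303 and 293 CPM in the knockout (−0.37 ± 0.12, adjusted p = 0.47). These groups did not overlap, and the same held for 7 of 53 members, all lower, where 9.8% of all genes had groups apart, 5.62% with the knockout lower. Against the libraries named fl-fl alone, 3 members were called in Xbp1 KO and 1 in Xbp1-Ire1 KO. For Ergic3 the cDC2 ranges lay on top of each other, at 46.0 to 59.9 CPM (WT), 50.7 to 55.3 CPM (Xbp1 KO) and 43.3 to 57.6 CPM (Xbp1-Ire1 KO). Sec24d, already low in cDC2, went from 9.89 to 17.1 CPM in WT to 7.28 to 8.49 CPM in Xbp1-Ire1 KO (−0.65 ± 0.24, adjusted p = 0.65). Summed over all members, CPM stood at 92.5% of the WT mean in Xbp1 KO cDC2 and 95.9% in Xbp1-Ire1 KO cDC2, against 73.9% and 79.2% in cDC1.

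Whether an effect differed between the cell types was tested as an interaction over all 19 libraries. The effect of Xbp1 loss was lower in cDC1 than in cDC2 for 4 members, all cargo receptors, and higher for 0, where 2.17% of all genes were called, 1.84% lower and 0.328% higher. Ergic3 differed by −1.89 ± 0.20 on the log2 scale (edgeR adjusted p = 4.9e-06) and Yif1a by −1.42 ± 0.23 (adjusted p = 0.00077). Ergic1 (−1.08 ± 0.27, adjusted p = 0.035) and Surf4 (−0.71 ± 0.18, adjusted p = 0.044) also passed. Ergic3 and Yif1a were called under each of 22 alternatives, Ergic1 and Surf4 under 8 of 22 each. The count was 8 without cDC1 WT replicate 3. It was 2 with a replicate block, which left out Ergic1 (adjusted p = 0.052) and Surf4 (adjusted p = 0.099), and 2 without cDC1 WT replicate 1 or 2, cDC1 Xbp1 KO replicate 1 or 2, cDC2 WT replicate 3 or 4, or cDC2 Xbp1 KO replicate 2 or 3. No COPII gene passed this test, Sec24d among them, and neither did a COPI gene, tether or SNARE. On simulated counts this test recovered 27% of 2-fold changes, so a missed call does not show equal effects. For Xbp1-Ire1 KO against WT 0 members were called, where 2.23% of all genes were, and 14 of 53 had an unadjusted p under 0.05, where 12.5% of all genes did, led by Copa (−0.55 ± 0.15, adjusted p = 0.053) and Sec24c (−0.61 ± 0.16, adjusted p = 0.053). DESeq2 called 4 there and limma-voom 3. Between the knockouts, Ergic3 (2.07 ± 0.21, adjusted p = 2e-06) and Yif1a (1.61 ± 0.24, adjusted p = 0.00029) differed between the cell types, where 2.14% of all genes were called, 1.82% higher.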

How the data were processed

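RNA-seq counts of 19 sorted dendritic cell libraries were used, 1 table for cDC1 and 1 for cDC2. The deposited counts are whole-number counts per gene symbol, per the file headers and values. The deposited log2 values are the authors' normalized expression, for 11059 genes in cDC1 and 11441 in cDC2, and served 1 alternative. Reads were aligned to mm10 (build per the submitters' processing notes, which list TopHat2 2.1.0 and, for later steps, limma 3.42.2). How reads were counted, with which annotation and strand, is not given in the sources used here.

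Counts were tested on the whole tables with edgeR 4.0.16 in R 4.3.3 (filterByExpr, minimum count 10 and total 15; TMM; quasi-likelihood F test; Benjamini-Hochberg over all tested genes; called at an adjusted p under 0.05), with the 3 genotypes of a cell type in 1 fit. The WT comparison of cell types and the interactions used 1 fit of all 19 libraries, and their CPM were scaled over all 19. The SE was approximated from the log2 fold change and its F value. CPM was divided by exon-union length (GENCODE M21, GRCm38) only to compare genes. Promoters are from RefSeq GRCm38.p6. The tests were first checked on simulated counts, with 100 genes changed at each fold. In comparisons of 2 groups, 49% to 62% of 2-fold changes and 78% to 90% of 4-fold changes were recovered. The interactions recovered 27% (Xbp1 KO against WT), 29% (Xbp1-Ire1 KO against WT) and 16% (between the knockouts) of 2-fold changes. Many smaller changes would thus be missed.

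Members, role groups and lists were chosen with earlier results of these data known. Genes named were the 8 called members with the smallest adjusted p in each comparison, the most abundant of each role, the paralog sets of Sec23, Sec24, Sar1, Copg, Copz, Kdelr and Arf, and members called in an interaction. Other members are named to complete a role or a count, after their values were seen. Of the 54 members 20 share exon bases with another annotated gene, 5 of them at least 10% (Arf4, Arf5, Copg2, Ergic2 and Preb, each with a gene on the opposite strand). Same-numbered WT libraries of cDC1 and cDC2 deviated together from their group means (r = 0.13, 0.26 and 0.20 across genes, which are not independent replicates). Differently numbered ones of the same name gave r = 0.27 (cDC1 replicate 3, cDC2 replicate 4), 0.16 (1 and 2) and 0.05 (2 and 1). Pairs of fl-fl with WT-named libraries ran from −0.31 to −0.11. These values followed the name and do not show that numbers mark pairs. Numbers in the library names also differ from the replicate numbers for some libraries. The block in that comparison was 1 term for the replicate number over all 19 libraries, and may not join true pairs. As alternatives, limma-voom (limma 3.58.1), DESeq2 1.42.0 and edgeR with DESeq2's size factors were run, with no filter, at least 1 CPM in every library, a replicate block, only the compared groups, 1 kind of WT library, each replicate left out and, chosen after seeing the data, limma on the deposited log2 values.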

Additional observations from a re-analysis of the deposited data

Results flagged for a closer look

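Surf4, Ergic1, Ergic3 and Yif1a drew attention because their response to Xbp1 loss differed between cDC1 and cDC2 in the interaction test, by −0.71, −1.08, −1.89 and −1.42 on the log2 scale. Ergic3 and Yif1a drew attention again because the difference between the knockouts differed between the cell types, by 2.07 and 1.61. For Ergic3, Yif1a and Ergic1 the cDC1 libraries carried the difference, while the cDC2 ranges overlapped. The Ergic3 libraries of Xbp1 KO held 16.3 to 18.1 CPM in cDC1 and 50.7 to 55.3 CPM in cDC2. Surf4 was below every WT library in Xbp1 KO of both cell types. It held 198 to 247 against 376 to 533 CPM in cDC1, and 288 to 303 against 327 to 443 CPM in cDC2, where it was not called.

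In cDC2 WT, the one group with 4 libraries, replicate 4 lay apart from the other replicates for Sec13 (152 CPM against 116 to 121) and for Mcfd2 (52.1 CPM against 47.6 to 48.0). Mcfd2 encodes a partner of the lectin LMAN1. These were 2 of 53 members examined, and chance alone gives about 1 such group in 20. Neither gene was called between genotypes in cDC2.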

How the results depend on the processing

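Up to 8 called members with the smallest adjusted p were followed in each comparison, 36 values in all. Under other settings these gave 577 readings, with repeated fits counted once: 509 kept the call, 68 lost it and 0 reversed. Called members with a larger adjusted p are not in this count. For cDC1 Xbp1 KO against WT (21 members called), 5 were called against WT-named libraries only and 11 by limma on the deposited log2 values; leaving out 1 replicate gave 9 to 29. For cDC1 Xbp1-Ire1 KO against WT (9 called) the count was 20 with DESeq2, 14 without a filter, 5 with only the compared groups, 23 against fl-fl libraries, 3 against WT-named libraries and 5 on deposited log2 values; leaving out 1 replicate gave 5 to 23. Between the knockouts in cDC1 (6 called) it was 10 with DESeq2 and 12 with only the compared groups, and 3 to 10 with 1 replicate left out. In cDC2, fl-fl libraries alone gave 3 and 1 calls in Xbp1 KO and Xbp1-Ire1 KO against WT, and 0 was found in every fit with 1 replicate left out. For WT cDC1 against cDC2 (26 called) the count was 14 with only the compared groups, 9 with WT-named libraries and 13 to 25 with 1 replicate left out. For the interactions, Xbp1 KO against WT (4 called) gave 2 with only the compared groups, 7 with fl-fl and 2 with WT-named libraries, and 2 to 8 with 1 replicate left out. Xbp1-Ire1 KO against WT (0 called) gave 4 with DESeq2, 3 with limma-voom, 2 with the stricter filter, 1 with fl-fl libraries, and 0 to 4 with 1 replicate left out, the 4 without cDC1 WT replicate 3. Between the knockouts (2 called) it gave 4 with only the compared groups, and 2 in every fit with 1 replicate left out. Here and above, counts under other settings are given without the share of all genes called there. Changes in the members and changes over all genes thus cannot be told apart. The causes were not tested, beyond the fewer libraries of the fits that leave some out. Where 1 WT library was left in an arm, it was assumed to vary like the other groups.

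Within a cell type the correlations do not settle whether replicate numbers pair the libraries, since groups hold 3 or 4 libraries. In cDC1, deviations of same-numbered libraries correlated between −0.15 and 0.23 (3 of 9 pairs over 0.1), and in cDC2 between −0.12 and 0.23 (3 of 9). Between the knockouts alone, same-numbered libraries gave 0.01, 0.23 and 0.11 in cDC1, and 0.02, 0.23 and 0.18 in cDC2. Differently numbered knockout libraries ran from −0.21 to 0.11 in cDC1 and from −0.22 to 0.01 in cDC2. Between cDC1 and cDC2 of 1 genotype, same-numbered libraries correlated between −0.06 and 0.26 (4 of 9 over 0.1, the WT pairs among them). Differently numbered libraries there ran from −0.31 to 0.27 (3 of 21 over 0.1). With a replicate block the calls numbered 20, 10 and 6 in the cDC1 comparisons in the order above, 0 in cDC2, 22 between WT cell types, and 2, 1 and 3 in the interactions. Low counts left Kdelr3 untested in both cell types.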
